A study of Mus musculus with 6 samples.

Results

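The histone deacetylases measured here are Hdac1, Hdac2, Hdac3, Hdac5, Hdac6, Hdac7, Hdac8, Hdac10 and Hdac11, together with Sap30, a subunit of the Sin3 deacetylase complex. These 10 genes were chosen by name out of 12134 genes in the intron tables, with earlier results of these data known, among them the values of Hdac6 and Sap30. They account for 100 of the 85015 introns listed in any total RNA library and for 48 of the 54718 transcripts with long reads. Every value below comes from the comparison that was in view when the genes were chosen. The tests therefore describe the members and support no statement about the family. Hdac4, another class IIa deacetylase with 22 introns listed, is not a member, and Hdac9 had 0 introns listed.

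All samples were E14 mouse embryonic stem cells of 129/Ola background, a pluripotent line grown with serum and leukaemia inhibitory factor. They were transfected by lipofection with either an siRNA against Son, which encodes a nuclear protein of splicing speckles, or a control siRNA, and RNA was taken 24 hours later. Total RNA without ribosomal RNA was sequenced from 2 control and 2 Son knockdown samples, and polyadenylated RNA was read as Nanopore long cDNA from 1 control and 1 knockdown sample. The labels do not say that the replicates were separate cultures, so p-values measure only the spread between these samples. The label of the long-read control names the total RNA knockdown replicate 1 as its starting material, the same as the label of the long-read knockdown, so the origin of that library is unclear and long-read differences are given as those of the libraries labelled control and knockdown.

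Histone deacetylases remove acetyl groups from lysines of histones and other proteins. Class I enzymes (Hdac1, Hdac2, Hdac3 and Hdac8) are mostly nuclear, and Hdac1 and Hdac2 form the catalytic core of the Sin3, NuRD and CoREST complexes, while Hdac3 works in the NCoR and SMRT complexes. Class IIa enzymes (Hdac5 and Hdac7) shuttle between nucleus and cytoplasm and repress Mef2 targets, the class IIb enzymes are Hdac6, which deacetylates tubulin, and Hdac10, a polyamine deacetylase, and Hdac11 is the class IV enzyme. Splicing joins the exons of their pre-mRNAs, and an intron that is still present keeps a transcript from its mature form.

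In the knockdown, Hdac6 and Hdac10 held the member introns with a called change in splicing, Hdac6 introns 5 and 6 and Hdac10 intron 15, and all 3 were spliced less. They were 3 of 68 introns tested, beside 1.71% of all introns. Summed over introns, Hdac3, Hdac5, Hdac6 and Hdac10 were spliced less, and Hdac3, Hdac5 and Hdac6 also had fewer spliced reads. Over all genes these shares were 6.98% and 6.76%. The calls depended on the method and on the control libraries, as given below. Sap30 and Hdac2 showed another pattern: their spliced reads in total RNA differed little between the groups, while their long reads were 5.23-fold and 2.40-fold lower in the library labelled knockdown.

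The exon junctions that these introns separate are shown first, since they mark where the reads were counted. Each line gives the last 15 bases of the upstream exon in lower case and the first 15 of the downstream exon in capitals, 5′ to 3′ on the strand of the gene, from GENCODE M21 transcript sequences (GRCm38) matched by transcript, intron number and intron length. The first 3 belong to the called introns, the next 2 to the paralogous positions in Hdac10 and Hdac6 described further on, and the last 2 to Hdac5, whose intron was nearest to the threshold outside it, and to Sap30.
Hdac6 intron 5: tgtgtgtcctttcagGCCCGGTTCGCTGAG
Hdac6 intron 6: gatgttggttcacagCCTGGAATACATTGA
Hdac10 intron 15: tcgcagagctcagagGGTGCTCTGTGTGGC
Hdac6 intron 10: cgaccaggaccccagTGTCCTTTATTTCTC
Hdac10 intron 6: caacgatgaccccagTGTCCTTTATTTCTC
Hdac5 intron 8: gcaccccaaatgctgGGGAGCCCACCACGC
Sap30 intron 3: gcacaacttgttgagATAGTTGGTTGCCAC

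At 5′ junctions, split reads numbered 16012286 and 10640247 in the controls, and 14978479 and 10556187 after knockdown. The long-read libraries held 3080426 (control) and 1874851 (knockdown) reads. Son had 280.9 and 311.9 CPM of spliced reads (reads scaled to a common library total) in the controls and 94.6 and 102.4 after knockdown, a log2 fold change of −1.61 (edgeR quasi-likelihood test, Benjamini-Hochberg adjusted p = 3.72e-10). Averaged over introns that all 4 libraries listed, splicing efficiency was 0.903 and 0.893 in the controls and 0.893 and 0.875 after knockdown, so that knockdown replicate 2 was the lowest library. Of 10 stem cell markers, 9 were listed, with a summed level from 4556 to 4745 CPM, and 1 of them was called, with more spliced reads in the knockdown. Of the primitive endoderm, fibroblast and mesoderm or neural lists only Gata4, Thy1 and Pax6 were listed, each under 3 CPM in every library.

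For each intron, splicing efficiency is the number of split reads divided by all split and unsplit reads at its 2 junctions, so a value of 1 means that no unspliced read was counted. A read across an intron counts at both junctions. The test compared the odds of unsplit to split reads between the groups. Positive log2 odds ratios stand for a larger unspliced share after knockdown, relative to split reads. They do not require a larger number of unspliced reads. Hdac6 intron 28, for example, had 16 unsplit reads in the controls and 15 in the knockdown, at a value of 0.67. Of the 100 member introns, 78 were listed in all libraries and 68 had the 10 split and 10 unsplit reads required. Adjusted by Benjamini-Hochberg over 63309 introns, the edgeR quasi-likelihood test called 3 of these 68 lower at 0.05 and 0 higher. Over all introns tested, 1.71% were called lower and 0.0442% higher. At an unadjusted p under 0.05, 18 member introns were lower and 1 was higher. The share of all introns at that threshold was not computed, and the same holds for unadjusted counts given below. Both knockdown libraries lay below both controls in 32 of the 68 and above them in 6, against 24.3% and 13.1% of all introns tested. The members' median change in splicing efficiency was −0.0116, beside −0.00418 over all introns tested, and their median length was 477.5 nt, beside 1128 nt. Since the genes were chosen with this comparison known, nothing is read from these counts.

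Among the class I enzymes, 0 of 31 tested introns were called lower or higher by edgeR, beside 1.71% and 0.0442% of all introns tested. At an unadjusted p under 0.05, 4 were lower and 1 was higher. The share of all introns at that threshold was not computed, so nothing is read from these counts. In Hdac1, the most changed intron by mean splicing efficiency was intron 12 (407 nt), at 0.940 and 0.918 in the controls and 0.908 and 0.826 after knockdown. Those groups did not overlap, and the log2 odds ratio was 0.96 (standard error 0.437, edgeR adjusted p = 0.406). Intron 8 of Hdac1 (80 nt) had closer replicates, at 0.985 and 0.987 against 0.968 and 0.969, and an edgeR adjusted p of 0.151. In 6 of the 9 tested introns of Hdac1 both knockdown libraries were below both controls, and in none above. Over all introns tested the shares were 24.3% and 13.1%. Introns of a gene come from the same libraries and are not independent, so nothing is read from this count.

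Hdac2 is the close paralogue of Hdac1. None of its 11 tested introns had both knockdown libraries below both controls, and 4 had both above, beside the 24.3% and 13.1% of all introns tested. As for Hdac1, nothing is read from this count. Its largest difference in the lower direction was in intron 10 (464 nt), at 0.936 and 0.962 in the controls and 0.956 and 0.906 after knockdown, which overlap (log2 odds ratio 0.40, edgeR adjusted p = 0.893). The exon junctions of the same-numbered introns of Hdac1 and Hdac2 had between 20 and 24 identical bases of 30 and lay at the same place in the codon, a comparison made after the values were seen. The difference between the 2 genes was not tested.

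In Hdac3, the catalytic subunit of the NCoR and SMRT complexes, intron 7 (682 nt) had 0.904 and 0.926 in the controls and 0.833 and 0.844 after knockdown. The groups did not overlap, and the log2 odds ratio was 1.04 (standard error 0.396, edgeR adjusted p = 0.222). Intron 3 of the same gene (6695 nt) lay the other way, at 0.925 and 0.960 against 0.994 and 0.962 (edgeR adjusted p = 0.463). Intron 5 of Hdac3 (115 nt) was listed in the controls alone, at 0.432 and 0.651. Hdac8, an X-linked class I enzyme, had only 2 tested introns. The 65533 nt intron 4 of Hdac8 was at 0.944 and 0.981 in the controls and 0.981 and 0.949 after knockdown, so the groups overlapped.

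Among the class IIa enzymes, intron 8 of Hdac5 (501 nt) came closest to the threshold. It was at 0.944 and 0.992 in the controls and 0.862 and 0.812 after knockdown, without overlap. Its log2 odds ratio was 2.46 (standard error 0.756), and its edgeR adjusted p of 0.0662 did not pass. Hdac5 intron 9 (158 nt) was at 0.969 and 0.986 against 0.926 and 0.894. In Hdac7, intron 5 (813 nt) had 0.915 and 0.829 in the controls and 0.673 and 0.595 after knockdown, on 82, 41, 52 and 37 junction reads. The groups were far apart, and the log2 odds ratio of 2.06 had a standard error of 0.836 (edgeR adjusted p = 0.284). Only 3 of the 15 listed introns of Hdac7 could be tested, and intron 7 had no unspliced read in any library.

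Hdac6, the tubulin deacetylase with 2 catalytic domains, had the most listed introns of any member, and 22 of these 23 were tested. Intron 5 (99 nt, chromosome X, junctions at 7810952 and 7810853 on the minus strand in the deposited tables, whose processing notes name GRCm39) was at 0.969 and 0.981 in the controls and 0.781 and 0.766 after knockdown. Both knockdown libraries were far below both controls. Unsplit reads at its 5′ and 3′ junctions numbered 2 and 9 in the controls together and 32 and 30 in the knockdown, so both ends of the intron had more, while split reads went from 406 to 213. The log2 odds ratio was 3.43 (standard error 0.632, edgeR adjusted p = 0.000128). This intron lies between 2 whole codons and its length is a multiple of 3.

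The neighbouring intron 6 of Hdac6 (836 nt, chromosome X, junctions at 7810812 and 7809976) was at 0.972 and 0.985 in the controls and 0.893 and 0.901 after knockdown. The fall was smaller than that of intron 5 and the replicates again lay close together. Its log2 odds ratio was 2.31 (standard error 0.528, edgeR adjusted p = 0.0040). Intron 4 (1864 nt), on the other side, was at 0.819 and 0.840 against 0.618 and 0.651. It was not called with both junctions summed (edgeR adjusted p = 0.241), and its unsplit reads were 39 in the controls and 65 in the knockdown at the 5′ junction but 5 and 25 at the 3′ junction. Counted at the 3′ junction alone, intron 4 was called and introns 5 and 6 were not. Split reads of intron 4 at its 5′ and 3′ junctions were 61 and 61, then 45 and 44, in the controls. After knockdown they were 48 and 15, then 76 and 19. Those of intron 6 were 255 and 257, then 163 and 167, in the controls. After knockdown they were 126 and 157, then 114 and 168. Which exon ends these uneven split reads joined was not tested.

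Along the rest of Hdac6 no other intron was called with both junctions summed. Intron 19 (228 nt) was at 0.926 and 0.918 in the controls and 0.887 and 0.789 after knockdown (edgeR adjusted p = 0.491). Its mean change of −0.084 was as large as the −0.081 of intron 6, but its knockdown libraries lay far apart. Intron 21 (119 nt) was at 0.897 and 0.943 against 0.881 and 0.805 (edgeR adjusted p = 0.651). Introns 15 and 16 were at 0.987 to 0.995 in the controls and 0.988 to 0.992 in the knockdown. Intron 17 (87 nt) was at 0.979 and 0.969 against 0.940 and 0.928 (edgeR adjusted p = 0.0760), the nearest of Hdac6 outside the threshold. Intron 12 (94 nt) was the only one with both knockdown libraries above both controls, at 0.763 and 0.773 against 0.783 and 0.812. In all, 13 of the 22 tested introns of Hdac6 had both knockdown libraries below both controls, beside 24.3% of all introns tested. As in Hdac1, these introns are not independent, so nothing is read from this count.

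**Figure D1:**
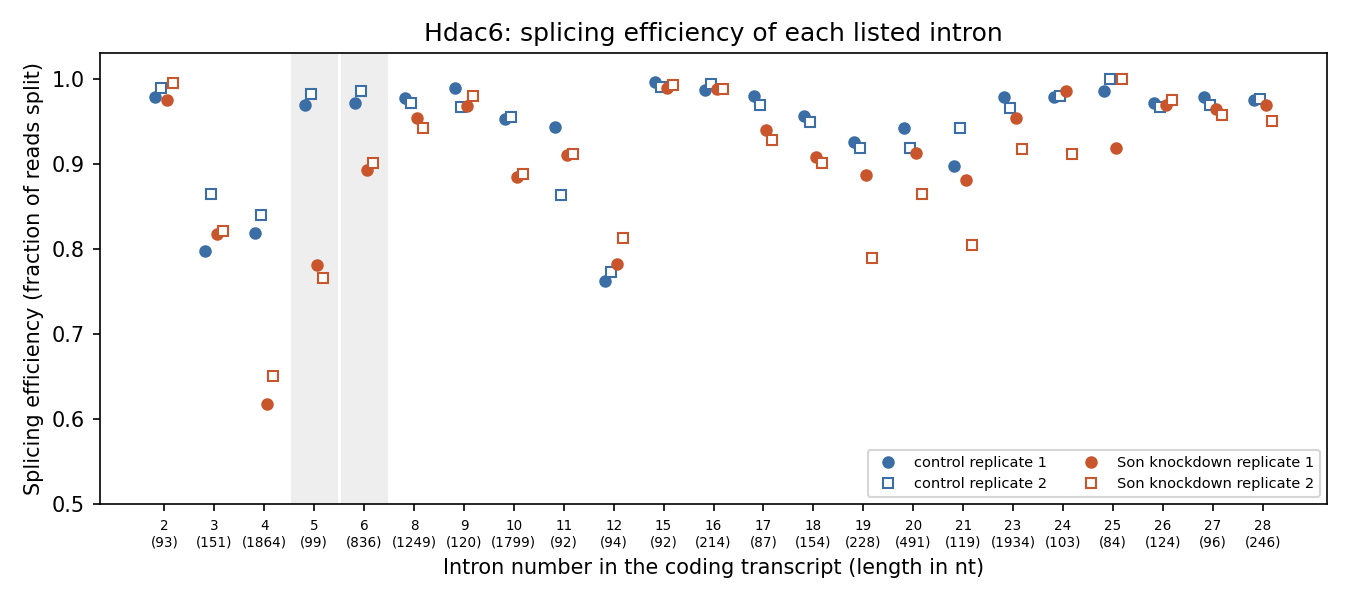
Splicing efficiency (fraction of junction reads that are split) of the 23 listed introns of Hdac6, by intron number with the length in nt in brackets, 1 point per total RNA library; the axis starts at 0.5. The shaded introns 5 and 6 were called; at intron 5 the controls are at 0.969 and 0.981 and the knockdown at 0.781 and 0.766.

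Hdac10, the polyamine deacetylase and paralogue of Hdac6, had short introns, with a median length of 113.5 nt over 14 listed introns, and low coverage. Intron 15 (124 nt, chromosome 15, junctions at 89008915 and 89008791) was at 0.884 in both controls and at 0.385 and 0.462 in the knockdown, on 69, 43, 26 and 26 junction reads. In the knockdown most reads at this intron were therefore unspliced. The log2 odds ratio was 3.35 (standard error 0.903, edgeR adjusted p = 0.0237).

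The other 2 tested introns of Hdac10 also had both knockdown libraries below both controls. Intron 1 (70 nt) was at 0.875 and 0.839 against 0.704 and 0.455 (edgeR adjusted p = 0.452), and intron 6 (154 nt) was at 0.765 and 0.743 against 0.488 and 0.467 (edgeR adjusted p = 0.519). Several introns of Hdac10 were not listed in knockdown replicate 2 and were not tested. Among them was intron 2 (166 nt), at 0.784 and 0.900 in the controls and 0.290 in knockdown replicate 1. Intron 9 (76 nt) had no unspliced read in any library, so the introns of Hdac10 differed widely among themselves.

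**Figure D2:**
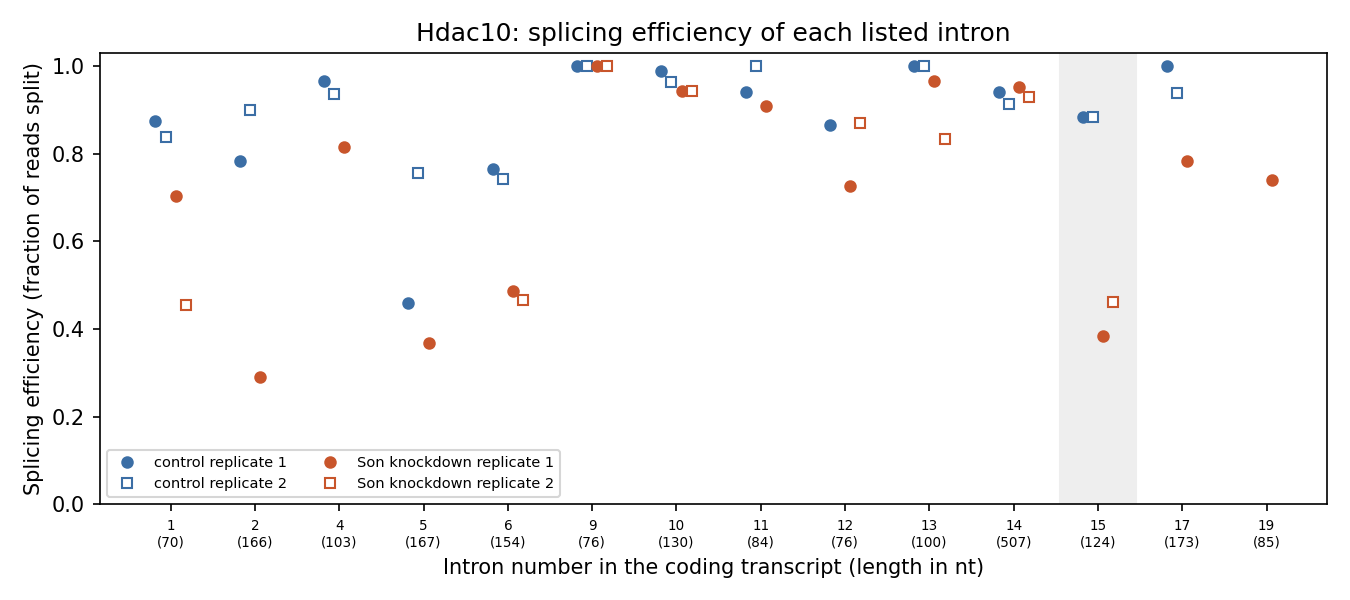
Splicing efficiency (fraction of junction reads that are split) of the 14 listed introns of Hdac10, by intron number with the length in nt in brackets, 1 point per total RNA library; a missing point means that the intron was not listed. The shaded intron 15, the only one called, is at 0.884 in both controls and at 0.385 and 0.462 in the knockdown.

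The calls of single introns depended on the method and on the control libraries. Limma on the log2 odds called 0 of them (14 at an unadjusted p under 0.05; adjusted p from 0.288 to 0.295 for the 3), and the 5′ junction alone kept only Hdac6 intron 5. Without control replicate 1, or without control replicate 2, Hdac6 intron 5 alone was called; Hdac6 intron 6 then had adjusted p-values of 0.0678 and 0.169 and Hdac10 intron 15 of 0.311 and 0.164, and without knockdown replicate 1 Hdac10 intron 15 had 0.0723.

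Hdac6 and Hdac10 descend from related genes, and some of their introns separate nearly the same exon ends. Hdac6 intron 10 and Hdac10 intron 6 share 27 of the 30 junction bases printed above and interrupt the codon at the same place. Hdac6 intron 10 (1799 nt) was at 0.953 and 0.955 in the controls and 0.884 and 0.887 after knockdown (log2 odds ratio 1.40, edgeR adjusted p = 0.113), and its counterpart Hdac10 intron 6 is given above. In both genes the knockdown libraries were below the controls at this position, without a call in either. Hdac6 intron 6, which was called, and Hdac10 intron 2 share 22 of 30 bases. Hdac6 intron 8 and Hdac10 intron 4 share 21, and Hdac6 intron 9 and Hdac10 intron 5 share 20. So do Hdac6 intron 21 and Hdac10 intron 6. Hdac6 intron 8 was at 0.977 and 0.972 in the controls and 0.954 and 0.942 after knockdown. At Hdac6 intron 9 the groups overlapped, at 0.989 and 0.966 in the controls and 0.968 and 0.980 after knockdown. These pairs were looked up after the values were seen.

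Hdac11, the class IV enzyme, had 1 listed intron (intron 9, 705 nt), listed in the knockdown libraries only, at 0.923 and 1.00 on 39 and 52 junction reads. No comparison was possible. In Sap30, which bridges Sin3 to other proteins of the complex, all 3 introns were tested and 0 were called by edgeR, with 0 at an unadjusted p under 0.05. Intron 3 of Sap30 (1991 nt) was at 0.978 and 0.981 in the controls and 0.973 and 0.942 after knockdown (log2 odds ratio 0.93, edgeR adjusted p = 0.810). Intron 1 (1616 nt) was at 0.949 and 0.901 against 0.961 and 0.947, with overlapping groups.

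Reads were next summed over the introns of each gene listed in all libraries. Splicing efficiency fell in 4 of the 9 members tested, Hdac3, Hdac5, Hdac6 and Hdac10, and rose in 0 (edgeR quasi-likelihood test, Benjamini-Hochberg adjustment over 9370 genes). At an unadjusted p under 0.05, 6 were lower, a threshold at which the share of all genes was not computed. At the adjusted threshold, 6.98% of all genes were called lower and 0.128% higher, and nothing is read from the members' share. The median log2 odds ratio was 0.91 over the members and 0.09 over all genes, which became −0.05 when split and unsplit reads were scaled separately.

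Hdac10 had the widest gap, at 0.932 and 0.908 in the controls and 0.798 and 0.735 after knockdown (log2 odds ratio 1.81, standard error 0.454, edgeR adjusted p = 0.00188). Hdac5, the class IIa corepressor, was at 0.966 and 0.972 against 0.909 and 0.918 (1.55, standard error 0.384, edgeR adjusted p = 0.00155). Hdac6 was at 0.965 and 0.962 against 0.934 and 0.925 (1.00, standard error 0.229, edgeR adjusted p = 0.000434). In each of these genes the groups were apart by more than the replicates of either. Hdac3 was at 0.979 and 0.978 against 0.965 and 0.957 (0.91, standard error 0.254, edgeR adjusted p = 0.00778), a narrow but separate range.

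The other members did not pass. Hdac1 was at 0.977 and 0.979 in the controls and 0.971 and 0.965 after knockdown (log2 odds ratio 0.55, edgeR adjusted p = 0.171). Hdac7 was at 0.949 and 0.950 against 0.911 and 0.891 (1.02, standard error 0.508, edgeR adjusted p = 0.334). In both, the groups did not overlap, so that 6 of the 9 members had both knockdown libraries below both controls, beside 27.1% of all genes. Hdac2 (−0.08), Hdac8 (0.27) and Sap30 (−0.36) had overlapping groups, and edgeR adjusted p-values from 0.806 to 0.982. The non-member Hdac4 was at 0.908 and 0.899 against 0.903 and 0.890, also overlapping (edgeR adjusted p = 0.975).

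**Figure D3:**
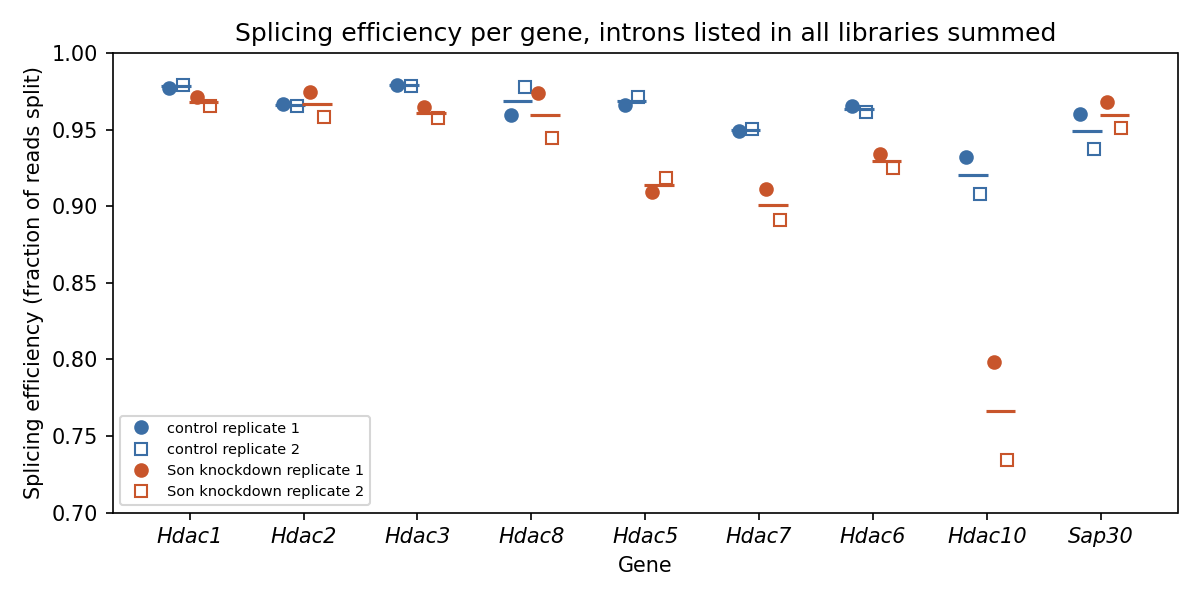
Splicing efficiency (fraction of junction reads that are split) of each member over its introns listed in all libraries; points are total RNA libraries, short lines are means of 2, and the axis runs from 0.7 to 1. Hdac10 is at 0.932 and 0.908 in the controls and at 0.798 and 0.735 in the knockdown, the widest gap.

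Limma called 0 members (5 at an unadjusted p under 0.05; adjusted p from 0.103 to 0.230 for the 4). Without control replicate 1, edgeR called 0 (4 at an unadjusted p under 0.05; adjusted p from 0.0747 for Hdac5 to 0.327 for Hdac3), without control replicate 2 it called Hdac6 and Hdac10, and without knockdown replicate 2 Hdac3 had an adjusted p of 0.164.

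The number of spliced reads per gene was taken as a measure of spliced RNA: split reads at 5′ junctions, summed over the introns listed in all libraries. In bulk samples, fewer cells that express a gene and less RNA per cell cannot be told apart. Of the 9 members tested, 3 fell and 0 rose (edgeR with TMM, Benjamini-Hochberg over 9474 genes). Over all genes 6.76% were called lower and 1.96% higher, and nothing is read from the members' share. The median log2 fold change was −0.20 over the members and 0.01 over all genes.

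Hdac5 had 29.5 and 32.7 CPM in the controls and 21.6 and 18.7 after knockdown, a log2 fold change of −0.64 (standard error 0.147, edgeR adjusted p = 0.0065). Hdac3 had 223.5 and 217.6 CPM against 163.4 and 181.5 (−0.38, standard error 0.083, edgeR adjusted p = 0.00448). Hdac6 had 323.1 and 326.9 CPM against 244.4 and 271.2 (−0.36, standard error 0.078, edgeR adjusted p = 0.00425). In all 3 genes both knockdown libraries were below both controls by more than the replicates differed. Hdac10 had 10.1 and 11.4 CPM against 8.85 and 7.72 (−0.39, standard error 0.205) and did not pass (edgeR adjusted p = 0.312).

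Hdac1 (log2 fold change −0.12), Hdac2 (−0.08) and Hdac7 (−0.20) also had both knockdown libraries below both controls, with edgeR adjusted p-values from 0.389 to 0.649. For Hdac2 the levels were 365.9 and 369.8 CPM in the controls and 351.8 and 352.0 after knockdown. Sap30 had 50.7 and 52.1 CPM against 50.7 and 43.7, so its groups overlapped, with a log2 fold change of −0.14 (standard error 0.116, edgeR adjusted p = 0.569). Hdac8 was the only member above the controls in both knockdown libraries, at 8.41 and 8.54 CPM against 10.4 and 10.7 (0.29, edgeR adjusted p = 0.473), as were 27.5% of all genes tested. In all, 7 of the 9 members had both knockdown libraries below both controls, beside 22.0% of all genes tested.

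**Figure D4:**
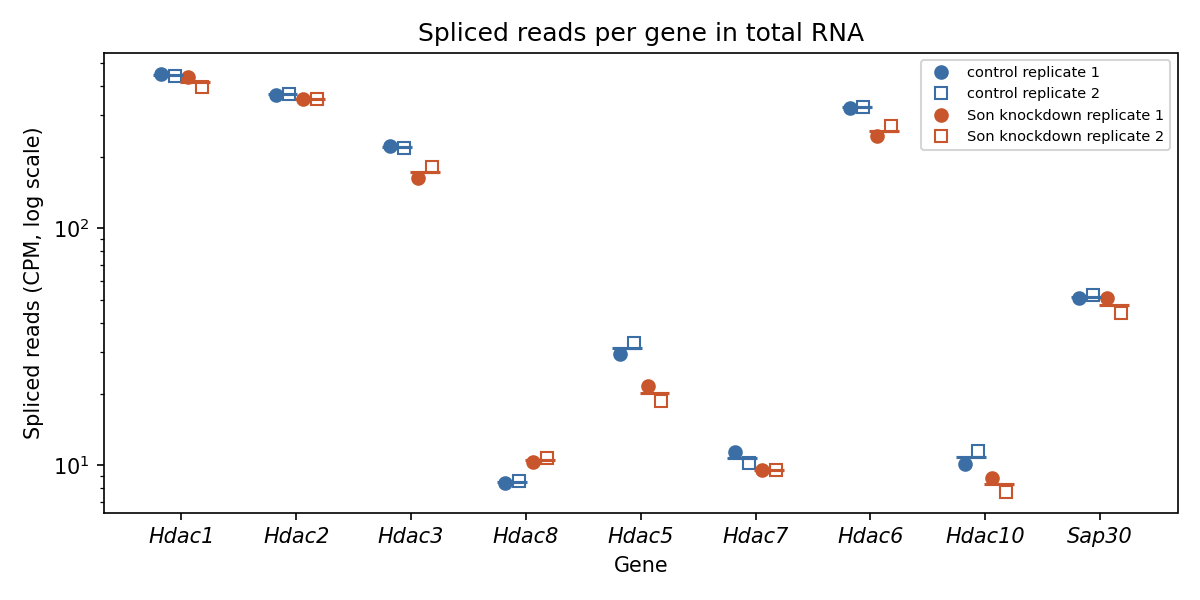
Spliced reads of each member in CPM on a log axis; points are total RNA libraries and short lines are means of 2. Both knockdown points lie below both controls for 7 of the 9 genes, above them for Hdac8 (10.4 and 10.7 against 8.41 and 8.54), and overlap for Sap30; levels of different genes are not comparable because their introns differ in number.

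Counting a single intron per gene, the one with the most reads, edgeR called 0 members (2 at an unadjusted p under 0.05; adjusted p from 0.165 to 0.432 for the 3). Without control replicate 1 only Hdac5 was called (adjusted p = 0.145 for Hdac3 and 0.0930 for Hdac6), and without control replicate 2 edgeR called 0 members (3 at an unadjusted p under 0.05; adjusted p from 0.0741 to 0.146), while without knockdown replicate 1 Hdac1 was called too (log2 fold change −0.18, adjusted p = 0.00802).

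The partners of these enzymes were taken as lists, chosen with earlier results of these data known. Of 65 partner genes tested, 4 had fewer spliced reads and 0 more, and of 65 tested for splicing efficiency 10 were lower and 0 higher (edgeR, adjusted over all genes; 6.76% and 6.98% of all genes were called lower). In the CoREST list, which holds the partners of Hdac1 and Hdac2 around the demethylase Kdm1a, the corepressor Rcor2 fell from 117.2 ± 4.81 to 53.6 ± 0.655 CPM (log2 fold change −1.15, edgeR adjusted p = 1.27e-07; SD, n = 2 each). Zmym3, of the same list, fell from 57.2 ± 4.99 to 29.7 ± 5.59 CPM (−0.95, edgeR adjusted p = 4.67e-05; SD, n = 2 each). Both also had lower splicing efficiency, as did Hmg20b. For spliced reads, 2 of the 10 CoREST genes were called.

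Gps2, a subunit of the NCoR and SMRT complexes that hold Hdac3, went from a splicing efficiency of 0.920 ± 0.00035 to 0.836 ± 0.0051 (SD, n = 2 each; edgeR adjusted p = 0.000335) and a log2 fold change of spliced reads of −0.55. Mta1 of the NuRD complex was called in both measures too, with −0.38 for spliced reads. Of the Sin3 list, which holds the partners of Sap30, 11 genes were tested and 0 were called by edgeR in either measure, with 0 at an unadjusted p under 0.05 and 0 calls by DESeq2 or, for splicing efficiency, limma. Their medians were −0.01 for the log2 fold change of spliced reads and −0.02 for the log2 odds ratio. Of the NAD-dependent deacetylases, Sirt2 and Sirt6 were called lower in splicing efficiency, as were the acetyltransferases Kat2a and Kat5. The MiDAC list and the class IIa partners had 0 calls by edgeR or DESeq2; at an unadjusted p under 0.05 edgeR gave 0 and 1 genes in each measure.

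The partner calls moved with the setting as well. The share of all genes called is given for the main setting alone, so nothing is read from the counts in other settings. For splicing efficiency, DESeq2 called 4 partners and limma 0 (11 at an unadjusted p under 0.05), and edgeR called 0 without control replicate 1 (8 at an unadjusted p under 0.05), 5 without control replicate 2 and 3 (Gps2, Mta1 and Rcor2) without knockdown replicate 2. For spliced reads the calls were 2 (Rcor2 and Zmym3) without control replicate 2, 14 without knockdown replicate 1 and 10 without knockdown replicate 2. The 14 included 1 gene of the Sin3 list, Sap130 (log2 fold change 0.20, edgeR adjusted p = 0.00251). The 10 included 2 of the 3 tested MiDAC genes, Elmsan1 (0.45, edgeR adjusted p = 0.0350) and Trerf1 (0.34, edgeR adjusted p = 0.0259), and all 3 had an unadjusted p under 0.05. These were higher in the knockdown and are named after their values were seen. For the Sin3 list, 1 gene had an unadjusted p under 0.05 without knockdown replicate 2, and 1 for splicing efficiency with a replicate block or with split and unsplit reads scaled separately.

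The long reads give whole transcripts, 1 library per group, so differences have no replicate check and no test. Levels are CPM. Ratios are log2 of knockdown over control with 0.5 reads added, and 95% exact intervals cover counting error only. The required 20 reads over both libraries were reached by 8 members; Hdac7 (12 and 5 reads) and Hdac11 (9 and 1) did not. Of the 8, 3 were at least 2-fold lower, Sap30, Hdac2 and Hdac10, and 0 at least 2-fold higher. Over all genes with 20 reads, 4.16% were at least 2-fold lower and 2.2% at least 2-fold higher. The members' median log2 ratio was −0.61, and that of all genes was −0.01.

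Sap30 had 129 control and 15 knockdown long reads, all in 1 coding transcript, which is 41.9 CPM (95% Wilson interval 35.2 to 49.8) and 8.0 CPM (4.85 to 13.2). The log2 ratio was −2.35 (interval −3.27 to −1.61). In total RNA the spliced reads of Sap30 had a log2 fold change of −0.14, so the long-read value was lower by 2.21 on the log2 scale. Ordered by that difference, Sap30 was number 7 from the lowest of 8006 genes with both measures. Which of the assays describes the cells was not tested, and the unclear origin of the long-read control applies here.

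Hdac2 had 355 and 90 long reads, or 115.2 CPM (95% Wilson interval 103.9 to 127.9) and 48.0 CPM (39.1 to 59.0). The log2 ratio was −1.26 (interval −1.61 to −0.93), against −0.08 for its spliced reads in total RNA, and its place was 142 from the lowest of 8006. Its main coding transcript, ENSMUST00000019911, had 334 and 76 reads (log2 ratio −1.41), while the shorter ENSMUST00000128031 had 14 and 6. Among the 8 members, the long-read interval did not include the total RNA value in Sap30, Hdac2 and, in the opposite direction, Hdac1. In the same order by difference, Hdac1 was number 6476 from the lowest of 8006. The share of all genes with such an interval was not computed, so nothing is read from this count.

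Hdac1 had 1934 and 1372 long reads, or 627.8 and 731.8 CPM, and the log2 ratio was 0.22 (interval 0.12 to 0.32). Most of them were assigned to ENSMUST00000150105, annotated as a retained intron, a 803 nt model that shares 214 of its bases with the coding transcript. It had 1390 reads in the control and 997 in the knockdown. Models with a retained intron held 72.8% of the Hdac1 reads in the control (95% Wilson interval 70.7 to 74.7%) and 73.4% in the knockdown (71.0 to 75.7%), intervals that overlap. The coding transcript ENSMUST00000102597 had 527 and 365 reads and the retained-intron model ENSMUST00000139305 had 14 and 9. How reads shared between these models were assigned is not given in the sources used here.

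Hdac3 had 120 and 47 long reads (log2 ratio −0.63, interval −1.15 to −0.14), beside −0.38 for its spliced reads. Its coding transcript ENSMUST00000043498 had 104 and 42 of them. For Hdac6 the reads were 79 and 37 (−0.37, interval −0.98 to 0.20), beside −0.36, so both assays gave nearly the same value. Within Hdac6, the coding transcript ENSMUST00000115642 had 41 and 27 reads, a log2 ratio of 0.12 (interval −0.64 to 0.85). The other one, ENSMUST00000033501, had 20 and 4, a log2 ratio of −1.47 (interval −3.61 to −0.03). These intervals overlap.

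Hdac10 had 19 and 5 long reads (log2 ratio −1.11, interval −2.99 to 0.26), and its coding transcript ENSMUST00000082197 had 12 in the control and 0 in the knockdown. That transcript had fewer than the required 20 reads and was picked after its values were seen. The exact interval of its log2 ratio, which covers counting error only, reached up to −0.76. Transcripts annotated as retaining an intron held 5 and 3 of the Hdac10 reads. Hdac5 had 24 and 15 reads (0.06, interval −1.0 to 1.03), and Hdac8 had 18 and 7 (−0.59, interval −2.15 to 0.68), of which ENSMUST00000087916 held 15 and 6. For each of these 3 genes as a whole the interval included 0. Of the 10 member transcripts with 20 reads, 3 passed 2-fold, those of Sap30 and Hdac2 and ENSMUST00000033501 of Hdac6, all lower; over all transcripts 5.8% were 2-fold lower and 3.32% higher. With a minimum of 10 reads, 7 passed, 6 lower and 1 higher; the latter was ENSMUST00000107151 of Hdac5, with 4 and 7 reads (log2 ratio 1.45, interval −0.45 to 3.74).

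**Figure D5:**
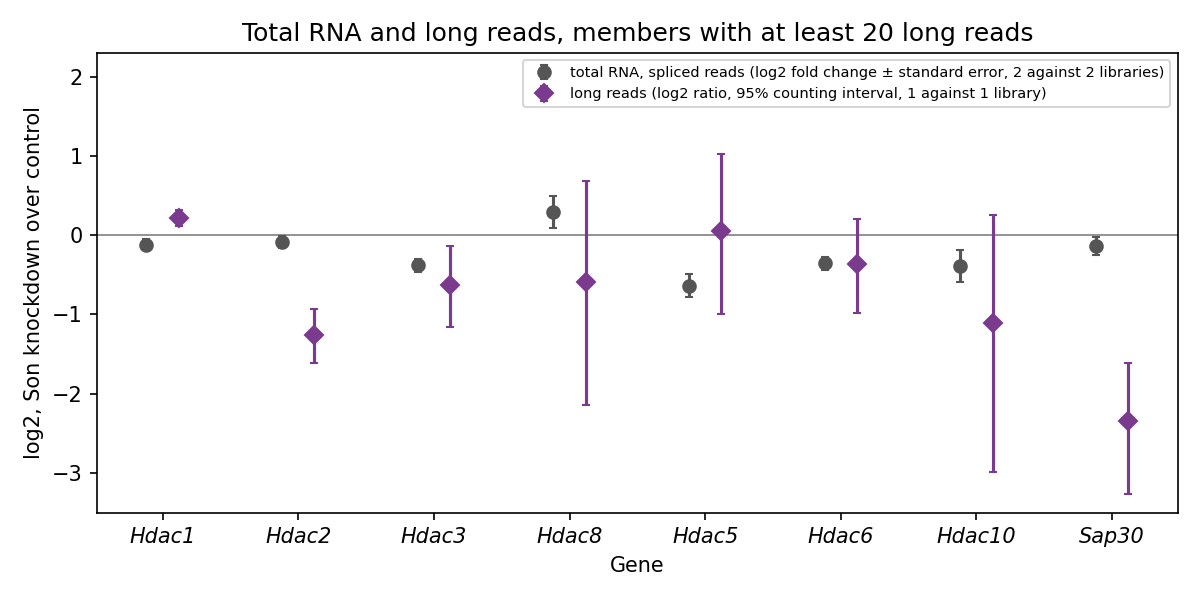
Log2 of knockdown over control for the 8 members with at least 20 long reads; circles are spliced reads in total RNA with the standard error (2 against 2 libraries), diamonds are long reads with the 95% counting interval (1 against 1 library). Sap30 is at −0.14 and −2.35 and Hdac2 at −0.08 and −1.26, while Hdac6 is at −0.36 and −0.37.

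Across the 4 total RNA libraries, the genes whose log2 CPM followed Hdac6 most closely, by Euclidean distance after centring among 7388 genes, were Tmem63b (distance 0.026), Hexa (0.036) and Mrpl28 (0.040). For Sap30 they were Mfge8 (0.011), Tbcb (0.015) and Tbc1d25 (0.021). Each distance rests on only 4 values per gene, so no shared regulation is read from it. The Sap30 values differed mainly in knockdown replicate 2, at 43.7 CPM beside 50.7 to 52.1 in the other libraries.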

How the data were processed

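Each total RNA library has 1 deposited SPLICE-q table, per the labels, with the counts of reads split or unsplit at the 5′ and the 3′ junction of an intron. The deposited splicing efficiency is a fraction from 0 to 1. Each long-read library has a deposited table of read counts by transcript, per the labels. The submitters' processing notes name minimap2, SAMtools and GRCm39; settings and the use of strand are not given in the sources used here, so values of overlapping genes are uncertain.

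Introns were reduced to unique positions, and gene names, transcript types and junction sequences came from GENCODE M21 by identifier. Counts were tested with edgeR 4.0.16 in R 4.3.3 over all introns (at least 10 split and 10 unsplit reads) or genes, with Benjamini-Hochberg adjustment and a threshold of 0.05. Introns of more than 1 gene were left out of sums per gene. DESeq2 1.42.0 and limma 3.58.1 were alternatives, and Wilson and exact intervals came from scipy 1.17.1. On simulated data with an assumed spread between libraries, the intron test recovered 53 of 100 introns with 4-fold more unsplit reads. Of 100 with 8-fold more it recovered 96, with 3 false calls. The spliced-read test, simulated on introns rather than genes, recovered 19 of 100 falls to 0.5-fold and 16 of 100 rises to 2-fold. A member intron that was not called may therefore have changed. Gene sums hold more reads than single introns, so the spliced-read recovery does not carry over to the member genes. Their log2 fold changes, where not called, had standard errors from 0.071 (Hdac2) to 0.205 (Hdac10). Smaller changes in those genes may still have been missed. Named are all members, every called intron and each member's intron with the largest fall. Transcripts with at least 20 long reads, partners past the threshold, and the 3 genes most alike are named too. Other introns and transcripts were picked after their values were seen. The members and lists were chosen with earlier results of these data known. The result of a further partner gene is not reported here.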

Additional observations from a re-analysis of the deposited data

How the results depend on the processing

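The counts of called members depended on the setting. Shares over all introns and genes are given for the main setting alone, so nothing is read from the members' counts in other settings. For introns (3), limma called 0 (14 at an unadjusted p under 0.05), the 5′ junctions alone 1 and the 3′ junctions alone 1; leaving out 1 library gave 1 to 3. For gene splicing efficiency (4), limma called 0 (5 at an unadjusted p under 0.05) and leaving out 1 library gave 0 to 4. For spliced reads (3), the best covered intron alone gave 0 (2 at an unadjusted p under 0.05), and leaving out 1 library gave 0 to 4. Transcripts past 2-fold went from 3 to 7 (6 lower, 1 higher) with a minimum of 10 long reads. The cause was not tested. DESeq2 called 2, 4 and 3, and gave no adjusted p for Hdac10 intron 15. Members past neither threshold changed sign in 5 cases: the log2 odds ratio of Hdac2 was 0.082 at 5′ junctions alone and 0.30 without knockdown replicate 1 (−0.46 to 0.30 over libraries left out), and that of Hdac8 was −0.087 at 5′ junctions alone, −0.055 without control replicate 2 and −0.34 without knockdown replicate 2 (−0.34 to 0.83 over libraries left out).

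Samples with the same replicate number hardly deviated together (correlations of 0.036 for spliced reads over 7388 genes and 0.050 for splicing efficiency over 63309 introns). The labels give them only a shared number, but their depth was also alike. Split reads at 5′ junctions numbered 16012286 and 14978479 in replicate 1, and 10640247 and 10556187 in replicate 2. Mean splicing efficiency was lower in replicate 2 of the controls (0.893 against 0.903) and of the knockdown (0.875 against 0.893). Whether they shared a batch was not tested. With a replicate block, 6 introns were called, adding Hdac5 intron 8 and Hdac6 introns 10 and 17, 5 genes for splicing efficiency, adding Hdac1, and 3 genes for spliced reads. Depth limited Hdac7, Hdac8, Hdac10 and Hdac11 most.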
